A study of Mus musculus with 2 samples.

Results

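Major urinary proteins (MUPs), the products of the Mup genes, are described here in the liver of normal and diabetic mice. Of the 8551 genes listed in the deposited expression table, 7 had a symbol starting with Mup, and 6 of these belong to the family: Mup2, Mup3, Mup4, Mup5, Mup20 and Mup-ps13. The seventh, Mupcdh (Entrez 72040), carries the identifier of the protocadherin gene Cdhr5 and was kept apart. The family was chosen because its members were known to be low in the diabetic library, so the fall described below is what led to the choice and is given without a test. Liver RNA of male wild type mice on a C57BL/6 background (normal) was compared with that of male db/db mice on a C57BL/6 background, in which the leptin receptor is defective, so that the animals overeat and develop diabetes. All were adults of 9 weeks, killed about 3 h into the light period. Each group was represented by 1 library, with 10278530 clean tags for normal and 13508231 for diabetic liver, so no value below has a replicate check, and whether a library pooled several mice is not stated. The mice came from a pair of suppliers, and which supplier provided which group is not stated either.

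MUPs are small lipocalins, barrel-shaped proteins that carry volatile pheromones in a central pocket. They are made in very large amounts by hepatocytes of adult male mice, secreted into the blood, filtered by the kidney and excreted in urine, where they serve as scent marks. Transcription of the liver genes is known to depend on the pulsatile growth hormone secretion of males, and also on testosterone, thyroid hormone and glucocorticoids. Most of the genes lie in 1 cluster on chromosome 4 and are nearly identical to each other, whereas a few older members at the edges of the cluster differ more.

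The measurement rests on short tags next to DpnII sites (GATC), so what can be read for a gene depends on its own tag. In the standard tag protocol the site closest to the 3′ end of a transcript gives the tag, and each transcript then counts once whatever its length. Tags of 20 bases were therefore read from the GENCODE M21 transcripts (GRCm38), starting at that site. Of the 22 coding Mup genes of this annotation, 5 (Mup3, Mup4, Mup5, Mup6 and Mup20) had a tag of their own, 16 shared 1 tag, and 1 (Mup21) had no site. The tags are shown because they separate the rows that stand for 1 gene from those that cannot. In the shared tag the capitals mark the DpnII site, and in the others they mark each base that differs from the shared tag at the same position.
Mup2 and the other 15 genes: GATCtgcattccatcctgtc
Mup4: gatctgcTttccatcctgtc
Mup20: gatctgcTttccatcGtgtc
Mup3: gatctgcTCtccaCcTGTCT
Mup5: gatctgcTtCcATCATGTCT
The Mup4 tag differed from the shared tag by 1 substitution, A8T, and the Mup20 tag by A8T and C16G, with positions counted from 1 at the G of the DpnII site and the base of the shared tag written first. The Mup3 and Mup5 tags differed at 8 and 11 of the 20 positions, by comparison without gaps. All 5 tags lie in the last of 7 exons, in the 3′ UTR, on the minus strand: Mup2 at chr4:60136088-60136107, Mup4 at chr4:59956962-59956981, Mup20 at chr4:62050391-62050410, Mup3 at chr4:62083632-62083651 and Mup5 at chr4:61831474-61831493. The Mup4 tag is a single base away from the shared tag, and also from the Mup20 tag, at position 16. A read with 1 sequencing error could therefore move between Mup4 and either of them. The number of mismatches that the authors allowed is not given in the sources used here.

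Only 1 of the 16 genes with the shared tag, Mup2, was listed under a Mup symbol. A further row named CU104690.1 carries the Entrez identifier of Mup18 (100048884), which has the shared tag too. The Mup-ps13 model of 545 bases held 0 DpnII sites, so the source of its reads is not known. Therefore the Mup2, Mup-ps13 and CU104690.1 rows are uncertain as single genes, whereas Mup3, Mup4, Mup5 and Mup20 had tags that no other GENCODE gene model has as its last tag. Of the 7208 coding genes whose GENCODE symbol matched a row, 95.4% had a last tag of their own, against 79.2% of the 14645 without a match. Genes listed under an older symbol fall among the latter. The cDNA was made with random hexamer primers per the labels. Sites further upstream served only to check that a last tag occurs in no other gene, and their own tags were not compared.

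As shown in the plot of levels, the 6 rows covered more than 3 orders of magnitude in both libraries. A level in TPM is here the share of a gene in all clean tags of its library, in parts per 1000000, and the intervals are 95% counting intervals computed from the tags. Without molecular identifiers tags are not independent molecules, so the intervals cover counting error only.

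**Figure D1:**
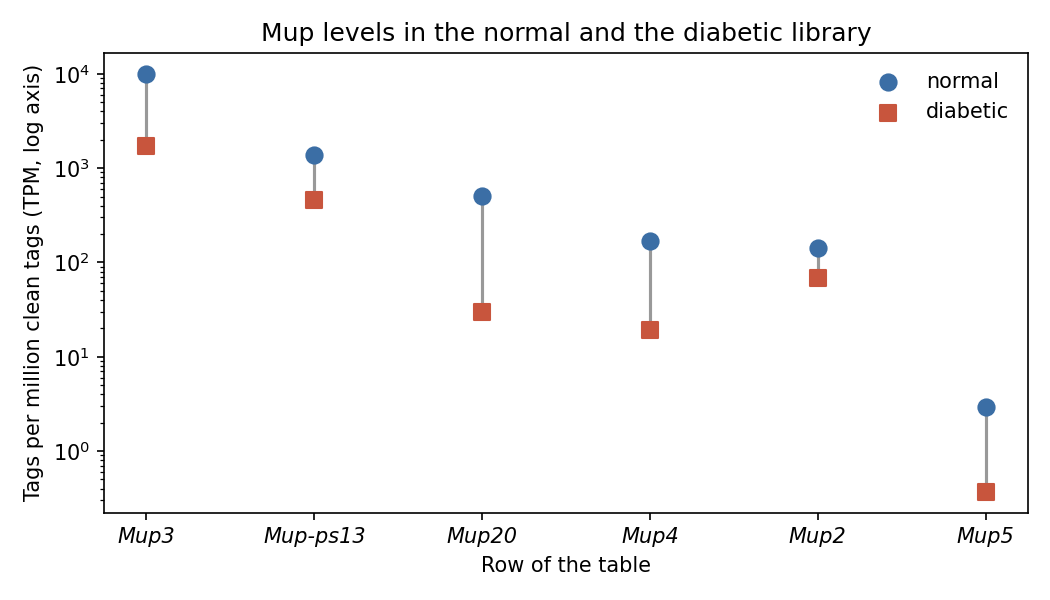
Level of each Mup row in the normal (circles) and diabetic (squares) library on a logarithmic TPM axis, with a line joining the 2 values of a row, 1 library per group. Every square is below its circle, from Mup3 (9993 and 1698 TPM) down to Mup5 (2.92 and 0.37 TPM).

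Mup3 (Entrez 17842), the row with by far the most tags, ranked 2 of the 8551 listed genes in normal liver and 44 in diabetic liver. Its 102709 tags in the normal library gave 9993 TPM, and its 22932 tags in the diabetic library 1698 TPM. The level was 5.89-fold lower in diabetic liver (5.80 to 5.97). Its tag differs from the shared tag at 8 positions, so these tags are not easily mistaken for those of the large group.

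Mup20 (Entrez 381530) encodes darcin, the urinary protein by which male scent attracts females and is remembered by them. It had 502 TPM (5159 tags) in normal liver and 30.1 TPM (407 tags) in diabetic liver. The 16.7-fold difference (15.1 to 18.5) was the largest of the 6 rows, and only 17 of the 8551 listed genes had a lower ratio. Its rank among all genes went from 96 to 1832.

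Mup4 (Entrez 17843) is known less from liver than from nasal and lacrimal glands, where its protein is secreted. Here 1752 tags gave 170.45 TPM in normal liver, and 260 tags gave 19.25 TPM in diabetic liver. This was 8.85-fold lower (7.77 to 10.1), with 40 listed genes at a lower ratio.

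Mup5 (Entrez 17844), another member known from glands, stood at the lower end of what this depth can measure. With 30 tags (2.92 TPM) in normal and 5 tags (0.37 TPM) in diabetic liver, its ratio was 7.89-fold lower with a wide interval of 3.03 to 26.0. In the diabetic library 3 tags correspond to 0.222 TPM, which is not far below the Mup5 level.

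The rows Mup-ps13 (Entrez 621093), named as a pseudogene, and Mup2 (Entrez 17841), a gene of the liver cluster, fell the least. Mup-ps13 went from 1382 TPM (14203 tags) to 462 TPM (6239 tags), 2.99-fold lower (2.90 to 3.08). Mup2 went from 141 TPM (1446 tags) to 69.1 TPM (934 tags), 2.03-fold lower (1.87 to 2.21). The Mup2 tag is shared by 16 genes and the source of the Mup-ps13 tags is not known. CU104690.1, the other row with the shared tag, with 7.69 TPM (79 tags) in normal and 2.29 TPM (31 tags) in diabetic liver, was 3.36-fold lower (2.19 to 5.25). By contrast, Mupcdh had 14.98 TPM (154 tags) in normal and 23.6 TPM (319 tags) in diabetic liver, so the gene that shares only the first letters of the symbol was higher in diabetic liver.

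In brief, 6 of the 6 rows were at least 1.5-fold lower in the diabetic library, the fold that the study used as its threshold. Of all listed genes, 15.3% were lower by as much and 34.4% were higher by as much, and because the family was chosen from this same contrast nothing is read from the count beside these shares. The count was also 6 at a fold of 2, which 6.81% of listed genes passed. The log2 ratios of diabetic over normal ran from -4.06 to -1.02 with a median of -2.77, and the median over all listed genes was 0.25. Scaling the libraries to each other moved that overall median by 0.25 to 0.31 on the log2 scale. It also moved the overall split, from 1310 genes lower and 2941 higher in the deposited values to 2022 lower and 2054 higher with TMM scaling. Because each scaling lowered every ratio, the 6 rows could only stay at least 1.5-fold lower. The table leaves out genes with a mean under 1 TPM, which a gene low in diabetic liver can pass through its normal level alone, as Mup5 did.

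**Figure D2:**
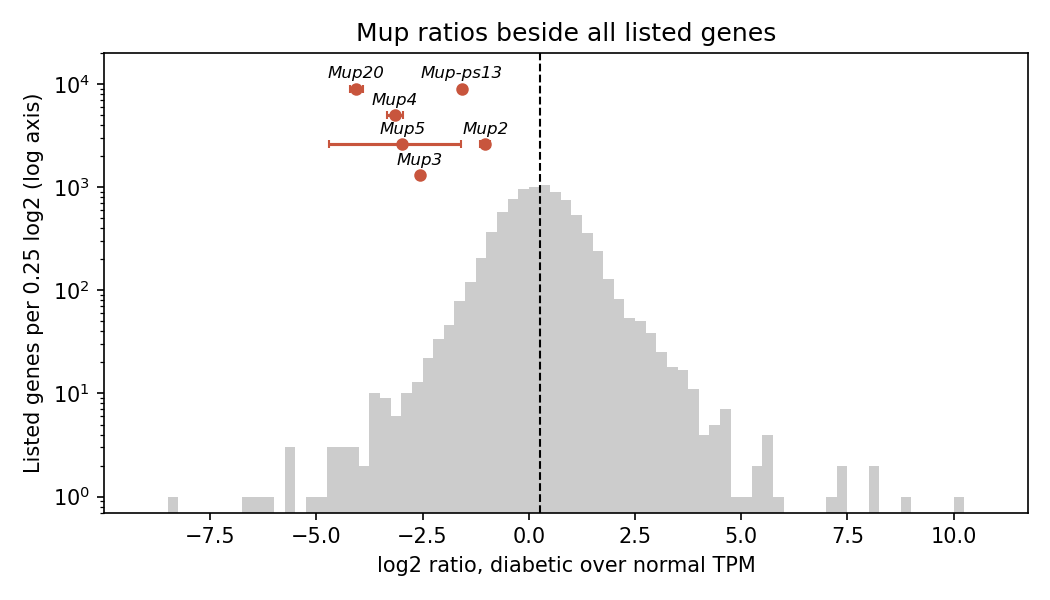
Histogram of the log2 ratio of diabetic over normal for the 8551 listed genes (x axis, log2 units; y axis, number of genes on a logarithmic scale), with the 6 Mup rows as points at arbitrary heights and their 95% counting intervals as bars. The dashed line marks the median of all genes at 0.25, and all 6 points lie to the left of it, with Mup20 the farthest at -4.06 and Mup2 the nearest at -1.02.

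The rows were not lowered by the same factor. In the order of the ratios, Mup20 fell 1.88-fold more than Mup4 (1.60 to 2.22), Mup3 fell 1.97-fold more than Mup-ps13 (1.90 to 2.03), and Mup-ps13 fell 1.47-fold more than Mup2 (1.35 to 1.60). These gaps were larger than counting error, although the spread between mice is unknown and the tags of Mup20 and Mup4 are 1 base apart. Mup5 could not be told from its neighbours, since the intervals of its fold to Mup4 (0.432 to 2.92) and to Mup3 (0.520 to 3.45) both include 1. For these distances between neighbours the interval is a normal approximation on the log odds ratio.

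As a consequence of the unequal ratios, the order of the rows by level differed between the libraries. Normal liver had Mup3 first, followed by Mup-ps13, Mup20, Mup4, Mup2 and Mup5, whereas in diabetic liver Mup2 moved above Mup20 and Mup4. The level of Mup20 was 3.57 times that of Mup2 in normal liver and 0.436 times in diabetic liver. The level of Mup4 was 1.21 times that of Mup2 in normal liver and 0.278 times in diabetic liver. Mup3 remained the highest row, yet its distance to Mup-ps13 shrank from 7.23-fold to 3.68-fold.

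The shares of the rows in their summed tags showed the same shift. Of the 125299 tags of the 6 rows in the normal library 82.0% belonged to Mup3, 11.3% to Mup-ps13, 4.12% to Mup20, 1.40% to Mup4 and 1.15% to Mup2. Of their 30777 tags in the diabetic library 74.5% belonged to Mup3, 20.3% to Mup-ps13, 3.03% to Mup2, 1.32% to Mup20 and 0.845% to Mup4. Thus the shares of Mup-ps13 and Mup2 were higher in diabetic liver, and those of Mup3, Mup20 and Mup4 were lower. Mup5 had 0.0239% (Wilson interval 0.0168 to 0.0342) and 0.0162% (0.00694 to 0.0380) of the tags, so its shares could not be told apart at this depth.

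**Figure D3:**
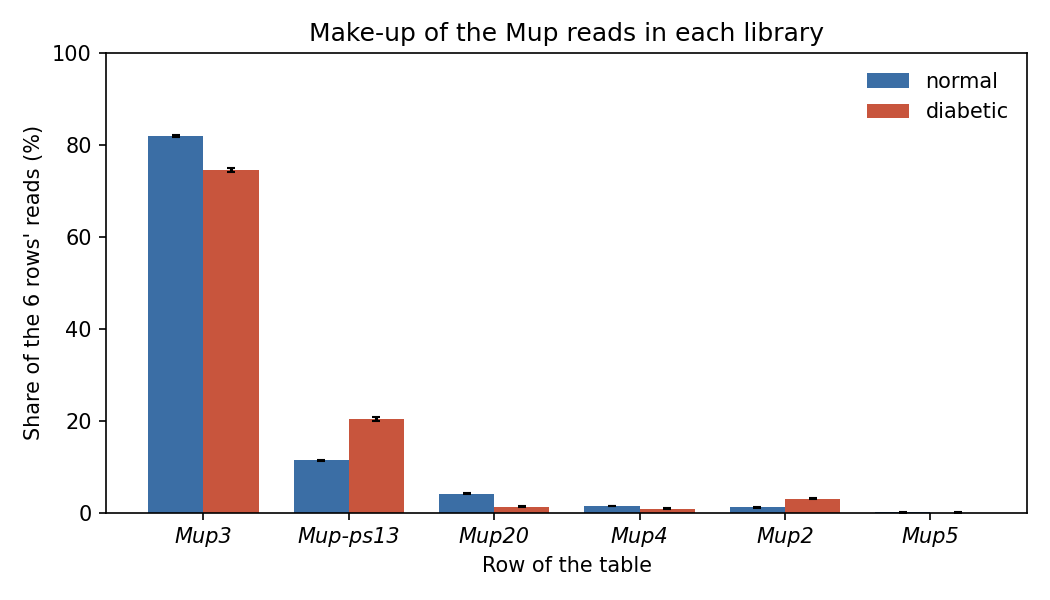
Share of each row in the tags of the 6 Mup rows of a library (y axis, percent), for the normal and the diabetic library, with 95% Wilson intervals that cover counting error only. Mup3 takes 82.0% and 74.5%, Mup-ps13 rises from 11.3% to 20.3% and Mup2 from 1.15% to 3.03%, while Mup20 goes from 4.12% to 1.32%.

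Summed, the 6 rows had 12190 TPM in normal and 2278.4 TPM in diabetic liver, 5.35-fold lower (5.28 to 5.42), or -2.42 on the log2 scale. Only Mup2 of the 16 genes that share a tag is among these rows, so the sum need not be the level of the whole family. The share of the 6 rows in the tags on listed genes was 3.29% (Wilson interval 3.27 to 3.31) and 0.514% (0.508 to 0.519). This sum was mostly Mup3, and without that row the other 5 were 3.78-fold lower. The 4 rows with their own tag were together 6.11-fold lower, and Mup2 and Mup-ps13 were together 2.87-fold lower. Adding up the falls of the 3258 genes that were lower in diabetic liver gave 67219 TPM, of which the Mup rows made up 14.7%, against 17.5% for Apoa1 alone. Of the 45 genes with at least 1000 TPM in normal liver, Mup3 and Mup-ps13 among them, 10 (22.2%) were at least 1.5-fold lower, and their median log2 ratio was 0.17. In bulk liver, fewer cells that express a gene and less RNA per cell cannot be told apart.

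The promoters of the rows that can be assigned to 1 gene are shown for Mup3 and Mup4, the members with their own tag that the RefSeq promoter table (GRCm38.p6) holds. Each run is the 250 bases before the annotated start of the gene, chr4:62087318-62087567 for Mup3 and chr4:59960668-59960917 for Mup4, both on the minus strand and written 5′ to 3′ along the gene. Capitals mark matches to the motifs searched.
Mup3: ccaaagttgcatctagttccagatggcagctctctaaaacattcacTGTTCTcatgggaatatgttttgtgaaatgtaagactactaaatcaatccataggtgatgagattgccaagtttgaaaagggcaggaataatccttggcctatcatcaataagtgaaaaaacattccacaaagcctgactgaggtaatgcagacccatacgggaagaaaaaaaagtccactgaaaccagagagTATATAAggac
Mup4: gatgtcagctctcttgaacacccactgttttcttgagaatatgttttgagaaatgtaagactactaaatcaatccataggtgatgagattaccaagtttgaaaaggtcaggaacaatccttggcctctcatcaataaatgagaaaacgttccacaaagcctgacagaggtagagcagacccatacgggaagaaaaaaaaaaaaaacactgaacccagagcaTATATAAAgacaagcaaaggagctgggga
Over 232 aligned columns the windows were 87.5% identical. The aligned part starts 21 bases further into the Mup3 window than into the Mup4 window, so the annotated starts do not lie at matching bases. The motifs, searched on both strands, were TTCNNNGAA (the letters bound by STAT factors), CACGTG (an E-box), TGTTCT (which glucocorticoid and androgen receptors bind) and TATAAA (a common form of the TATA box). After the windows had been seen TATATAA was added, another form of that box, which can overlap it. TATATAA stood at -29 to -23 in Mup4 and at -11 to -5 in Mup3 relative to the start, and 3.04% of the 32851 windows of the same length in the table hold it. TATAAA overlapped it in Mup4 (12.4% of windows). TGTTCT was found at -204 to -199 in Mup3 and not in Mup4 (16.1% of windows). TTCNNNGAA and CACGTG, present in 7.02% and 6.02% of windows, had no match in either window, which says only that these letters are absent there.

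The listed genes on either side of the Mup cluster had ratios on both sides of 0. Among the 10 nearest listed genes before and the 10 after it on chromosome 4, 3 were lower and 6 higher by at least 1.5-fold. The shares over all listed genes were 15.3% and 34.4%. For these neighbours the median of the log2 ratios was 0.31. They ran from -2.07 for Rgs3, a regulator of G protein signalling (16.4 TPM in normal and 3.92 TPM in diabetic liver), to 2.90 for Orm3 (5.45 TPM and 40.7 TPM). Ambp, which encodes the lipocalin alpha-1-microglobulin and, like the Mup genes, is transcribed at a high level in hepatocytes, had 4660 TPM in normal and 3871 TPM in diabetic liver, a log2 ratio of -0.27. The only listed row within the cluster that was not named Mup was CU104690.1.

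For each Mup row the 3 listed genes closest in their pair of levels were found, by the distance in log2 units over the 2 libraries. The closest to Mup20 was Cyp7b1, an oxysterol hydroxylase that is higher in male than in female liver, with 538 TPM in normal and 32.2 TPM in diabetic liver, at a distance of 0.14, followed by Cldn1 at 1.27 and C6 at 1.56. Serpina3k, Apoa1 and Fgg, all genes of secreted plasma proteins, were the closest to Mup3, at 0.81, 0.94 and 0.98. Egfr, the epidermal growth factor receptor, was at 0.32 from Mup4, with Ifit3 at 0.73 and C6, a complement component, at 0.93. The closest to Mup2 was Gulo, the last enzyme of vitamin C synthesis, at 0.09, with Epm2aip1 at 0.19 and Cyp2c44 at 0.22. The closest to Mup-ps13 were Gm4738, Comt1 and Es31 at 0.41, 0.52 and 0.62, and to Mup5 Gm12474, Galnt10 and LOC100048053 at 0.25, 0.32 and 0.34. With 2 points per gene this likeness is a description only.

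Other lipocalins were compared as the wider protein family. Of 13 genes in the list 7 were in the table. Of these, 1 was at least 1.5-fold lower and 2 were at least 1.5-fold higher, beside 15.3% and 34.4% of all listed genes. The median log2 ratio was -0.27. With TMM scaling 3 were lower and 2 higher. Ptgds, prostaglandin D synthase, was the lowest, with 3.11 TPM (32 tags) in normal and 1.55 TPM (21 tags) in diabetic liver. Orm3, an acute phase orosomucoid, was the highest at 2.90, and Lcn2, which binds bacterial siderophores, went from 16.7 TPM to 71.6 TPM. Apom, the carrier of sphingosine 1-phosphate, had 194 TPM in normal and 145 TPM in diabetic liver, and C8g, a complement subunit, 1215 TPM and 1464 TPM. Except for Ptgds, with few tags, no listed lipocalin outside the Mup rows was lower by 1.5-fold in the deposited values.

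Genes with a known sex difference in liver were set beside the Mup rows. Of 20 genes known to be higher in males, Mup genes not counted, 9 were in the table. Of these, 8 were lower and 1 was higher in diabetic liver by at least 1.5-fold, beside 15.3% and 34.4% of all listed genes. The list had a median log2 ratio of -3.78. Hsd3b5, a steroid dehydrogenase of male liver, had 103 TPM (1061 tags) in normal and 0.30 TPM (4 tags) in diabetic liver. Es31, a carboxylesterase, was the most abundant of them, with 898 TPM and 447 TPM. The exception was Ugt2b1, a glucuronosyltransferase, with 89.3 TPM in normal and 171 TPM in diabetic liver. Of 28 genes known to be higher in females 19 were in the table, each at least 1.5-fold higher in diabetic liver. Of these, 10 had at most 2 tags in normal liver and were listed only through their diabetic level, so that their direction was fixed by the limit on the mean. The same holds for Cyp2b10 (0.39 TPM in normal and 68.25 TPM in diabetic liver) and Abcd2 (0.58 TPM and 1.7 TPM). Nothing is therefore read from the count. The ratio was lowest for Fmo1, a flavin monooxygenase (112 TPM and 225 TPM), and highest for Cyp2b9, a cytochrome P450 that had the placeholder in normal and 352 TPM in diabetic liver, at least 1206-fold higher with normal liver set to 3 tags. The most abundant was Cyp4a14, a fatty acid hydroxylase (14.1 TPM and 743 TPM). The limit bears likewise on male-biased genes with a low diabetic level such as Hsd3b5. These lists were written with results of these libraries known and are not independent evidence of a direction.

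Growth hormone acts on hepatocytes through its receptor, the kinase JAK2 and the factor STAT5B. The list of 16 genes holds this chain, genes related to it and the binding proteins Igfbp1, Igfbp2 and Igfbp3, which are not parts of the chain. Of the 16 genes 13 were in the table. Of these, 6 were at least 1.5-fold lower and 0 were at least 1.5-fold higher, beside 15.3% and 34.4% of all listed genes. The lower genes include Igfbp1 (-1.47) and Igfbp2, so the count is not one of the chain alone. The median log2 ratio was -0.57. With TMM scaling 9 were lower, beside 2022 of the 8551 listed genes. The receptor Ghr had 165 TPM in normal and 172 TPM in diabetic liver, and Igf1, a secreted hormone induced by the pathway, 35.4 TPM and 40.6 TPM. Jak2 had 15.9 TPM and 11.99 TPM, and Stat5b 24.8 TPM and 16.7 TPM, a log2 ratio of -0.57. Stat5a had 3.5 TPM and 3.41 TPM. Of the feedback inhibitors, Socs2 had 25 and 9 tags (log2 ratio -1.86) and Socs3 22 and 18 tags (-0.69, interval -1.67 to 0.28). Cish, another such inhibitor, had 18.8 TPM and 3.48 TPM (-2.43). Igfbp2, a binding protein of insulin-like growth factors, was the lowest at -4.45, with 63.2 TPM in normal and 2.89 TPM in diabetic liver. The ligand is made in the pituitary and was not measured.

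Transcription factors and hormone receptors of hepatocytes did not move in a common direction. Of 18 genes 12 were in the table, with 3 lower and 4 higher by at least 1.5-fold, beside 15.3% and 34.4% of all listed genes. The median log2 ratio was 0.21, and with TMM scaling 3 were lower and 2 higher. Hnf4a, a nuclear receptor that maintains hepatocyte identity, was the lowest at -1.07 (96.8 TPM and 46.2 TPM). The highest was Ppara, the fatty acid receptor, at 1.17 (36.6 TPM and 82.1 TPM). The most abundant, Cebpa, had 218 TPM in normal and 255 TPM in diabetic liver, and the glucocorticoid receptor Nr3c1 35.0 TPM and 41.4 TPM.

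The genes of abundant secreted plasma proteins show how other export products of the hepatocyte compared with the MUPs. Of 36 genes 29 were in the table, with 9 lower and 5 higher by at least 1.5-fold, beside 15.3% and 34.4% of all listed genes. The median log2 ratio was -0.06, and with TMM scaling 12 were lower and 1 was higher. Alb, serum albumin, had 6801 TPM in normal and 6912 TPM in diabetic liver. The lowest was Apob, the scaffold of very low density lipoprotein, at -2.45 (804 TPM and 147 TPM), and the highest Sepp1, the selenium carrier, at 1.66 (3289 TPM and 10422 TPM). Each of the 29 genes had a ratio above the -2.56 of Mup3, whereas Apob and Apoa1 (-2.35) were below the -1.58 of Mup-ps13. Below the -1.02 of Mup2 were these and also Serpina3k (-1.49), Fgg (-1.47), Fga (-1.45) and Itih1 (-1.05).

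**Figure D4:**
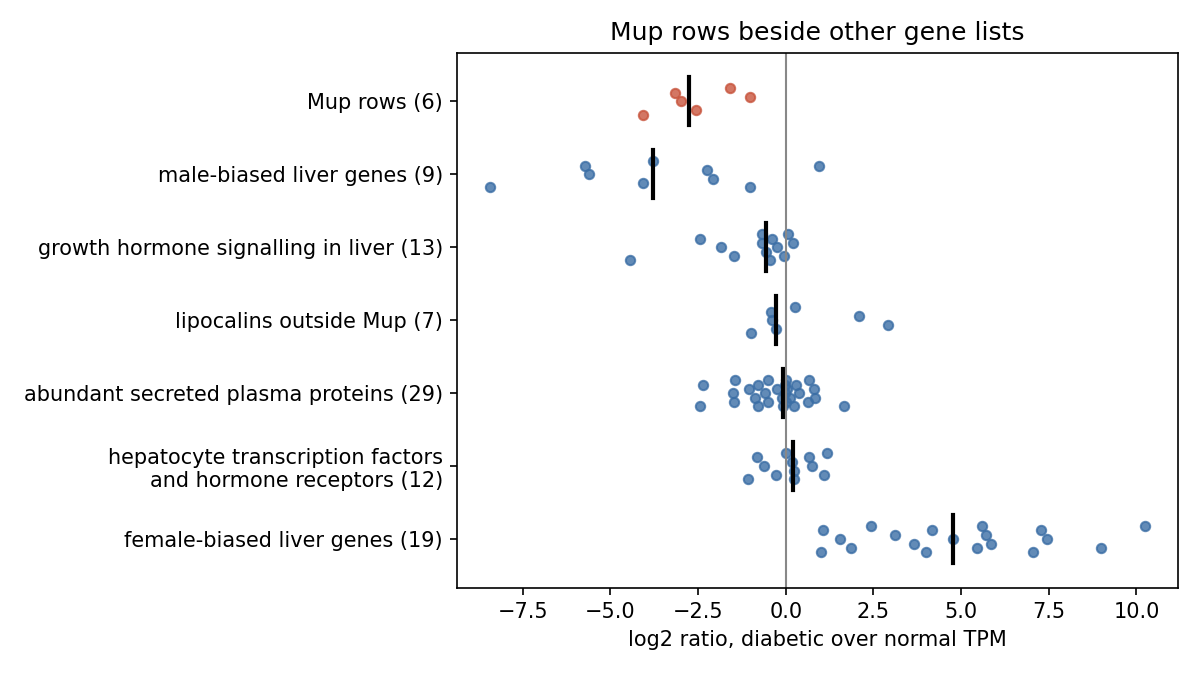
Log2 ratio of diabetic over normal for each listed gene of the lists named in the text (points, x axis) with the median of each list as a bar, and the 6 Mup rows on top. The Mup rows lie from -4.06 to -1.02, male-biased genes have a median of -3.78, and the plasma protein and lipocalin lists have medians of -0.06 and -0.27.

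The tissue label was checked with hepatocyte markers, of which 11 of 13 were listed, from 96.8 TPM (Hnf4a) to 14668 TPM (Apoa1) in normal liver. Their median log2 ratio was -0.00, from Apob (-2.45) to Cps1 (1.28). By at least 1.5-fold 3 were lower and 2 higher, beside 15.3% and 34.4% of all listed genes. Kupffer cell and macrophage markers were listed in 8 of 11 cases, with 4 lower and 1 higher, beside the same 15.3% and 34.4%. With TMM scaling 5 were lower and 0 higher, beside 2022 and 2054 of the 8551 listed genes. Their summed level was 327 TPM in normal and 194 TPM in diabetic liver, but most of that gap was the complement gene C1qa (176 TPM and 50.7 TPM), and the other 7 summed to 150.03 TPM and 143 TPM. Of the 8, C1qc was the lowest (-1.80) and C1qb the highest (0.60, 38.1 TPM and 57.8 TPM). Csf1r (-1.10) and Emr1 (-1.03) were lower as well. The sum of the other 7 is mostly set by more abundant markers such as Cd5l (64.7 TPM and 62.9 TPM) and C1qb. Endothelial markers (8 of 8 listed) summed to 119 TPM and 106 TPM, from Clec4g (-0.64) to Kdr (0.89), and stellate markers (5 of 6) to 51.9 TPM and 67.6 TPM, from Reln (-0.85) to Col1a1 (1.60), with Col3a1 the most abundant. The cholangiocyte list (3 of 5) went from 61.5 TPM to 107 TPM through Spp1 alone (57.2 TPM and 103 TPM), while Epcam had 3.21 TPM and 3.04 TPM and Krt7 1.07 TPM and 1.18 TPM. Of 9 markers of salivary, lacrimal and mammary glands, which also make MUPs, only Amy1 was listed (97.2 TPM and 289 TPM), a gene that liver transcribes too, and of 5 erythroid markers only Alas2 (51.9 TPM and 44.2 TPM). The part of these shifts in the Mup values was not tested.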

How the data were processed

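Total liver RNA was extracted by the authors, poly(A) RNA was isolated, and cDNA digested with DpnII was sequenced as tags on an Illumina instrument. Clean tags of high quality were matched to RefSeq and summed by gene. The submitters' processing notes name mm9, and the aligner is not given in the sources used here. The values that the authors deposited as TPM are RPM values, that is tags of a gene in 1000000 clean tags, with a placeholder of 0.01 for genes not detected. The lowest value above it was 2 tags in both libraries, so the placeholder may also stand for 1 tag. The smallest mean listed was 1.005 TPM. Unused columns of sample values numbered 0.

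Whole tags were computed from the equal steps of the deposited values (1 tag is 0.0973 TPM in the normal and 0.0740 TPM in the diabetic library), and 8536 of 8537 diabetic and all 8513 normal values above the placeholder came out whole within the rounding of 0.005 TPM. Fold changes used the deposited values, with genes at 3 tags or fewer bounded at 3 tags. Ratios have Clopper-Pearson and shares Wilson intervals (95%). With 1 library per group no p-value was computed for a condition. A gene was counted as lower or higher at 1.5-fold. Alternatives were 4 scalings (sum of listed genes, TMM trimmed by 30% and 5%, median ratio over genes of at least 10 TPM, upper quartile), a pseudocount of 1 TPM, a mean of at least 5 TPM, a fold of 2, and an exact binomial test on tags (FDR 0.001). That test compares libraries, not conditions, and served the counts of listed genes and of the gene lists. It was also run on the Mup rows, where nothing is read from it because they were chosen from this contrast. The script was tested on simulated tags.

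The members and gene lists were chosen with earlier results of these data known. Named were every Mup row and, from each list, the highest and lowest ratio, the most abundant gene and some of up to 6 more in list order. Cish was named in addition to these. By Entrez identifier 8317 of 8551 rows, and 5 of the 6 Mup rows, matched the RefSeq gene table of GRCm38.p6. CU104690.1 was found after the values were seen. Coordinates come from GENCODE M21 (GRCm38), since the table holds none. The tag length is not given in the sources used here, and 21 bases gave the same grouping of tags as 20. Python 3.11.15, numpy 2.4.6, scipy 1.17.1 and matplotlib 3.10.9 were used.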

Additional observations from a re-analysis of the deposited data

How the results depend on the processing

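The number of Mup rows at least 1.5-fold lower was 6 under the 4 scalings, the pseudocount and the fold of 2. It was 7 of 7 with CU104690.1 added and 6 of 7 with Mupcdh added, both chosen after seeing the data. The log2 ratio of the summed rows, -2.42, was -2.68 with scaling to the sum of the listed genes, -2.67 with TMM, -2.73 with median ratio, -2.69 with upper quartile, -2.72 relative to the listed genes without Mup rows, -1.92 without Mup3, -2.57 without Mup-ps13 and -2.61 for the rows with their own tag, the last chosen after seeing the data. It was -2.42 with a pseudocount or with CU104690.1 and -2.41 with Mupcdh. Ratios of single rows ran from -4.36 to -1.01 over 30 alternatives. Their direction could not change: each scaling took 0.25 to 0.31 off every log2 ratio, and a pseudocount keeps the sign. The count of 6 under the 4 scalings was fixed in the same way. The number of listed genes at least 1.5-fold lower, 1310, became 2044 with scaling to the sum, 2022 with TMM, 2189 with median ratio, 2076 with upper quartile, 582 at a fold of 2, 700 with the exact test and 658 with a mean of at least 5 TPM. Of 84 counts for the gene lists 66 stayed within 1.5 times. These include counts of 0 that stayed 0, for female-biased genes lower and growth hormone genes higher. The 66 is therefore not read as a measure of stability. No paired analysis was possible because each group had 1 library, and for the same reason no library could be left out. Depth limits Mup5, with 30 and 5 tags, most of all.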
